A study of Homo sapiens with 16 samples.

Results

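The genes described here are 9 that serve acetylcholine signalling: CHAT, SLC18A3, SLC5A7 and ACHE, which make, store, recover and break down the transmitter, and CHRNA3, CHRNA5, CHRNA7, CHRNB2 and CHRNB4, which encode nicotinic receptor subunits. They were taken by symbol from the gene table, where they are 9 of 27037 genes, and 8 of them passed the filter on low counts, among 15415 genes tested. RNA-seq of polyadenylated RNA was measured in 16 samples of SK-N-BE(2)C, an adrenergic neuroblastoma cell line with MYCN amplification, with 4 replicates in each of 4 groups. The groups were given vehicle (DMSO), 10 µM retinoic acid (RA), 1 µM palbociclib (PB), which inhibits the cell-cycle kinases CDK4 and CDK6, or both agents at those doses (PB+RA). Every group is the same line, grown in the same serum-containing medium, and the sample labels give no treatment time. The line stands for a tumour cell of sympathetic origin and not for a ganglion.

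In cholinergic neurons, choline acetyltransferase makes acetylcholine from choline and acetyl-CoA, the vesicular transporter encoded by SLC18A3 loads it into vesicles, and acetylcholinesterase breaks it down after release. SLC5A7 encodes the high-affinity transporter that brings choline back into the terminal. In autonomic ganglia the nicotinic receptor that carries fast transmission is built mainly from the CHRNA3 and CHRNB4 subunits, with the CHRNA5 subunit as an accessory part and the CHRNB2 subunit in some assemblies, whereas the CHRNA7 subunit forms receptors on its own. Most sympathetic neurons receive acetylcholine through these receptors and release noradrenaline, and a minority release acetylcholine themselves.

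The samples held 19515779 to 31620821 counts each. The 7 adrenergic markers used here (PHOX2A, HAND2, GATA3, ISL1, MYCN, TH and DBH) each averaged at least 1 CPM (a gene's counts relative to all counts of the sample) in every group, with a summed level of 4987 to 5447 CPM in DMSO, 7892 to 9088 in PB, 4860 to 5787 in RA and 6356 to 8431 in PB+RA. MYCN made up most of that sum in DMSO and PB, with a mean of 2947 CPM in DMSO and 5482 in PB, while HAND2 had means of 790 and 823. The summed level of 7 mesenchymal markers (FN1, YAP1, NOTCH3, VIM, CD44, TWIST1 and SNAI2) was 1129 to 1377 CPM in DMSO, 945 to 1101 in PB, 1892 to 2332 in RA and 1162 to 1586 in PB+RA. FN1 had a mean of 175 CPM in DMSO and 733 in RA, and VIM had 862 and 1058. CD44 (88.9 and 83.5) and SNAI2 (18.5 and 16.3) were lower in RA than in DMSO, and YAP1, NOTCH3 and TWIST1 were higher. SOX10, the defining Schwann cell marker, had at most 3 counts in any sample, and the 5 Schwann markers together lay between 18.4 and 54.6 CPM in every sample. The part of the marker levels in the results below was not tested. In RNA from whole cultures, fewer cells that carry a transcript and less of it per cell cannot be told apart.

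Changes were called at a Benjamini-Hochberg adjusted p under 0.05 with an absolute log2 fold change above 0.5, from edgeR's quasi-likelihood test on the counts of all genes. By this rule 3 of the 8 tested members rose and 1 fell in PB against DMSO, where 28.2% of all tested genes were called. In RA 1 member rose (13.3% of all genes called), and in PB+RA 1 rose and 1 fell (41.9% of all genes called). PB+RA against PB had 1 member higher and 1 lower (16.3% of all genes), and PB+RA against RA had 2 higher and 1 lower (29.0% of all genes). The members called did not share a direction. The median log2 fold change of the 8 tested members was 0.34 in PB, -0.04 in RA and 0.40 in PB+RA, beside 0.03, 0.01 and 0.04 over all tested genes. In RA 1661 of all genes rose and 392 fell, a split that became 1330 and 788 with a GC and length offset that was not centred, which also lowered the median log2 fold change of all genes (shift of -0.105).

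**Figure D1:**
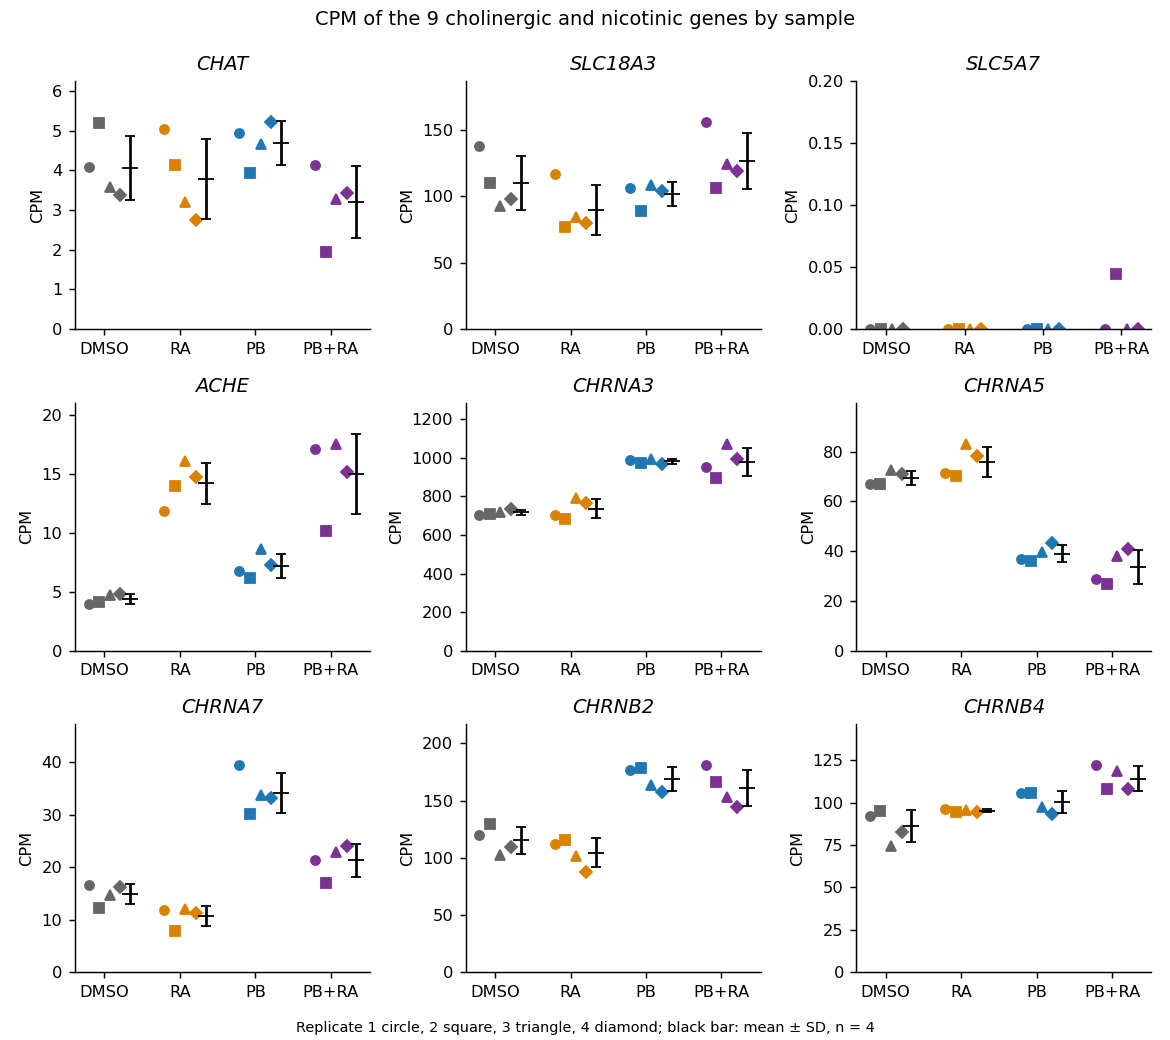
CPM of each of the 9 genes (vertical axes, linear and starting at 0) in the 4 groups, with a marker shape per replicate and the mean ± SD of 4 samples as a black bar. ACHE lay at 11.9 to 16.1 in RA against 3.94 to 4.76 in DMSO, CHRNA5 at 35.9 to 43.4 in PB against 67.1 to 72.6 in DMSO, and SLC5A7 had a count in a single sample, for which no bar is drawn.

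The levels of the members spanned a wide range in vehicle-treated cells. Per kilobase of annotated exon, CHRNA3 stood highest at 150.6 ± 2.75 CPM per kb (SD, n = 4), and its mean CPM over the 16 samples exceeded that of 99.7% of all genes in the table. SLC18A3 followed at 45.5 ± 8.40, and CHRNB2 (19.6 ± 2.05), CHRNA5 (19.2 ± 0.763) and CHRNB4 (17.3 ± 1.87 CPM per kb) had ranges that overlapped. ACHE was at 1.08 ± 0.0984, CHRNA7 at 0.702 ± 0.0917 and CHAT at 0.615 ± 0.123 CPM per kb. The length used decides the place of CHRNA7, because its gene model holds 21248 exonic bases and only 1887 coding ones, against 4073 and 1976 for ACHE. With all counts of the gene divided by coding length, CHRNA7 reached 7.90 ± 1.03 CPM per coding kb in DMSO, above ACHE at 2.22 ± 0.203. That scale keeps counts from untranslated exons, so it does not give levels over coding sequence. On that scale the mean of CHRNB2 (73.8 ± 7.74 CPM per coding kb) also stood above that of SLC18A3 (68.8 ± 12.7) in DMSO, with overlapping ranges.

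The choline side of the pathway was uneven. SLC5A7 (chromosome 2, 108602979 to 108630450, plus strand, GRCh37) had 1 count in all 16 samples together, in PB+RA replicate 2. A count of 0 allows up to 0.0949 to 0.154 CPM at the depth of these samples, counting error only, so no expression of the high-affinity choline transporter was detectable at this depth and it was not tested.

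CHAT (chromosome 10, 50817141 to 50875988, plus strand) and SLC18A3 (50818356 to 50820766, same strand) share a locus, because the whole of SLC18A3 lies within the CHAT gene, with no exonic base in common. SLC18A3 was the far more abundant of the pair at 110 ± 20.3 CPM in DMSO against 4.05 ± 0.809 for CHAT, and neither gene was called against DMSO with any agent. CHAT CPM in replicates 1 to 4 was 4.08, 5.18, 3.57 and 3.37 in DMSO and 5.04, 4.12, 3.20 and 2.75 in RA. It was 4.93, 3.92, 4.66 and 5.21 in PB and 4.14, 1.95, 3.27 and 3.43 in PB+RA. The groups overlapped throughout, and CHAT was lower in PB+RA than in PB in each of the 4 same-numbered pairs, at -0.58 on the log2 scale (SE 0.22, adjusted p = 0.0521 in edgeR). With the replicate number as a block the same value passed the test (-0.58, adjusted p = 0.0194), and leaving out PB replicate 2 (-0.65) or PB+RA replicate 1 (-0.74) also gave a call. So did DESeq2 (-0.57, adjusted p = 0.0386), limma-voom (-0.62, adjusted p = 0.0417), the GC and length correction (-0.65, adjusted p = 0.0283 in edgeR) and replicates 3 and 4 alone (-0.59, adjusted p = 0.0121). It was not called under RLE scaling (-0.57, adjusted p = 0.0538 in edgeR) or with no filter (-0.57, adjusted p = 0.0583). Nor was it called with a stricter filter, only the groups compared, replicates 1 and 2 alone or any other sample left out.

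SLC18A3 CPM was 138, 110, 92.6 and 98.1 in DMSO and 117, 76.9, 84.4 and 79.7 in RA. It was 106, 88.6, 108 and 104 in PB and 156, 106, 124 and 119 in PB+RA, with replicate 1 highest in DMSO, RA and PB+RA. RA alone gave a lower value than DMSO in each of the 4 same-numbered pairs (log2 fold change -0.30, adjusted p = 0.138 in edgeR), and RA on top of PB gave a higher value in each of the 4 (0.28, adjusted p = 0.158), neither of which passed the test. PB+RA stood above RA by 0.48 (SE 0.15, adjusted p = 0.0153), under the fold minimum, and it was called without RA replicate 1 (0.62), PB+RA replicate 2 (0.53) or PB+RA replicate 4 (0.52), and with replicates 3 and 4 alone (0.56). It no longer passed the adjusted p without RA replicate 2 (0.39, adjusted p = 0.0611 in edgeR) or PB+RA replicate 1 (0.34, adjusted p = 0.0802), or with replicates 1 and 2 alone (0.41, adjusted p = 0.309). The PB and RA log2 fold changes of SLC18A3 sum to -0.41, and the measured value for both agents was 0.17.

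ACHE (chromosome 7, 100487615 to 100494594, minus strand) was the only member called in RA, and the only one called in all 3 comparisons with DMSO. Its CPM in replicates 1 to 4 was 3.94, 4.16, 4.68 and 4.76 in DMSO and 11.9, 14.0, 16.1 and 14.7 in RA. It was 6.74, 6.14, 8.60 and 7.24 in PB and 17.1, 10.2, 17.5 and 15.2 in PB+RA. No treated sample came down to the DMSO range, and PB+RA overlapped RA, with PB+RA replicate 2 below every RA sample. ACHE rose by 1.68 on the log2 scale in RA (3.21-fold, SE 0.16, adjusted p = 1.42e-06 in edgeR), by 0.71 in PB (1.64-fold, SE 0.16, adjusted p = 0.00152) and by 1.75 in PB+RA (3.36-fold, SE 0.16, adjusted p = 6.63e-08). PB+RA exceeded PB by 1.03 (SE 0.16, adjusted p = 8.64e-05) and differed from RA by 0.06 (SE 0.15, adjusted p = 0.747). The order of the levels was therefore DMSO, then PB, then RA and PB+RA, whose difference was smaller than their spread.

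The PB and RA changes of ACHE sum to 2.40 on the log2 scale, above the 1.75 measured with both agents. This difference from the sum, the interaction, was -0.65 (SE 0.22, adjusted p = 0.114 in edgeR) and did not pass the test. With the replicate number as a block it was -0.66 (adjusted p = 0.00976), which passed, and that of SLC18A3 moved from 0.59 (adjusted p = 0.144) to 0.58 (adjusted p = 0.0058) and passed too. Without RA replicate 1 the value of SLC18A3 was 0.76 and passed without the block. No member was called for the interaction in the fit without the block, in which 3.44% of all genes (530 genes) were called, beside 1171 genes with the block. At an unadjusted p under 0.05 there were 3 of 8 members in edgeR, where 18.2% of all tested genes were at that level. DESeq2 (18.2% of all genes) and limma-voom (18.3%) likewise gave 3 members at that level and called 0.

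The ACHE promoter is printed here because this gene had the largest RA response of the members. It is the first of 3 RefSeq entries, the 250 bases before the annotated start on GRCh38.p14 (another build than the gene positions above), chr7:100895889-100896138, minus strand, printed in the direction of transcription with each GC box (GGGCGG, either strand) in capitals.
ACHE: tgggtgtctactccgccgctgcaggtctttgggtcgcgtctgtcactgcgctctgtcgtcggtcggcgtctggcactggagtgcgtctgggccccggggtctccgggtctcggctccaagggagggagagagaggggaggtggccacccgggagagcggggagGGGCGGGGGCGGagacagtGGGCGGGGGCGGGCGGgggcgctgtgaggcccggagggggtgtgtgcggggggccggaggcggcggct
The window was 75.2% G and C, against a median of 58.0% over 27305 promoters, and held 5 GC boxes. The nuclear receptor half-site AGGTCA, searched on both strands, was not in this window.

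Among the 5 receptor subunits in the set, CHRNA5 and CHRNA7 had the largest log2 fold changes against DMSO, in opposite directions. CHRNA5 (chromosome 15, 78857862 to 78887611, plus strand) had CPM of 67.2, 67.1, 72.6 and 70.9 in DMSO and 71.2, 70.2, 83.1 and 78.3 in RA. It had 36.7, 35.9, 39.8 and 43.4 in PB and 28.8, 26.8, 37.9 and 41.0 in PB+RA. Every sample with PB lay below every sample without it, whether RA was present or not. CHRNA5 fell by 0.83 on the log2 scale in PB (SE 0.11, adjusted p = 8.15e-06 in edgeR), by 1.08 in PB+RA (SE 0.11, adjusted p = 2.43e-07) and by 1.19 between RA and PB+RA (SE 0.11, adjusted p = 1.55e-07). RA alone gave 0.12 (adjusted p = 0.430), and PB+RA against PB gave -0.24 (adjusted p = 0.0961). In PB+RA the samples of replicates 1 and 2 were lower than those of 3 and 4, and the fall against DMSO was 1.30 in the first pair of replicates and 0.93 in the second, called in each.

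CHRNA7 (chromosome 15, 32215641 to 32465219, plus strand) separated the 4 groups. Its CPM was 16.5, 12.3, 14.6 and 16.2 in DMSO and 11.8, 7.80, 12.02 and 11.3 in RA. It was 39.4, 30.1, 33.8 and 33.2 in PB and 21.3, 16.9, 22.9 and 24.0 in PB+RA. The ranges of RA, DMSO, PB+RA and PB followed each other in that order with no overlap between neighbours. CHRNA7 rose by 1.19 in PB (2.29-fold, SE 0.14, adjusted p = 1.95e-06 in edgeR), fell by 0.71 when RA was added to PB (SE 0.14, adjusted p = 0.000669) and was higher by 0.97 in PB+RA than in RA (SE 0.14, adjusted p = 2.18e-05). The steps beside DMSO were smaller than the fold minimum, at -0.49 in RA (adjusted p = 0.0134) and 0.48 in PB+RA (adjusted p = 0.00528). The RA value was called without DMSO replicate 2 (-0.57), DMSO replicate 3 (-0.52), RA replicate 1 (-0.55), RA replicate 3 (-0.57) or RA replicate 4 (-0.53), and also under RLE scaling, no filter, DESeq2, limma-voom and the GC and length corrections. The PB+RA value was called without DMSO replicate 1 (0.53), DMSO replicate 4 (0.52) or PB+RA replicate 2 (0.55), with replicates 3 and 4 alone (0.54) and with a stricter filter on low counts (0.50). It was smaller and no longer passed the adjusted p with the GC and length correction (0.29, adjusted p = 0.0573 in edgeR), with the offset not centred (0.20, adjusted p = 0.184) or with replicates 1 and 2 alone (0.38, adjusted p = 0.20), and the RA value missed it with replicates 1 and 2 alone too (-0.57, adjusted p = 0.137).

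CHRNA7 has a partly duplicated, near-identical copy, CHRFAM7A. How reads that match both were counted is not given in the sources used here, so the level of either is uncertain. CHRFAM7A was at 1.56 ± 0.492 CPM in DMSO, 3.37 ± 0.131 in PB, 0.988 ± 0.172 in RA and 1.79 ± 0.242 in PB+RA (SD, n = 4). It rose by 1.10 in PB (adjusted p = 0.000157 in edgeR) and fell by 0.68 in RA (adjusted p = 0.0198), and gave 0.16 in PB+RA (adjusted p = 0.511).

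CHRNB2 (chromosome 1, 154540254 to 154552489, plus strand), which encodes the beta subunit common in brain receptors, had CPM of 120, 130, 102 and 109 in DMSO and 112, 116, 102 and 87.6 in RA. It had 177, 179, 163 and 158 in PB and 181, 166, 153 and 144 in PB+RA. All samples with PB lay above all samples without it. CHRNB2 rose by 0.55 in PB (SE 0.09, adjusted p = 0.000112 in edgeR) and by 0.61 between RA and PB+RA (SE 0.09, adjusted p = 4.51e-05), and stood at 0.46 in PB+RA against DMSO (adjusted p = 0.000427), under the fold minimum. The PB value fell to or under the fold minimum without DMSO replicate 3 (0.48) or PB replicate 2 (0.50) and with replicates 1 and 2 alone (0.50), and the PB+RA value was called without PB+RA replicate 4 (0.50).

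CHRNA3 (chromosome 15, 78885394 to 78913637, minus strand), the most abundant member, had CPM of 705, 708, 721 and 734 in DMSO and 706, 684, 794 and 764 in RA. It had 992, 973, 995 and 969 in PB and 952, 896, 1073 and 992 in PB+RA. The samples fell into those with PB and those without, and the 4 PB samples varied by only 1.30% (coefficient of variation). Its log2 fold change was 0.45 in PB (SE 0.05, adjusted p = 2.78e-06 in edgeR), 0.42 in PB+RA (SE 0.05, adjusted p = 3.34e-06) and 0.03 in RA (adjusted p = 0.693). These PB values passed the adjusted p and missed the fold minimum, so CHRNA3 was not called.

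CHRNB4 (chromosome 15, 78916453 to 79020096, minus strand) had 86.2 ± 9.30 CPM in DMSO, 100 ± 6.25 in PB, 95.3 ± 0.839 in RA and 114 ± 7.27 in PB+RA (SD, n = 4). Its log2 fold change was 0.14 in RA, 0.22 in PB (adjusted p = 0.0133 in edgeR) and 0.38 in PB+RA (SE 0.07, adjusted p = 0.000151), all under the fold minimum. The PB value no longer passed the adjusted p when PB replicate 1 (0.18), PB replicate 2 (0.17) or DMSO replicate 3 (0.14) was left out. Only the PB+RA samples lay clear of DMSO, at 108 to 122 CPM against 74.6 to 95.2.

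**Figure D2:**
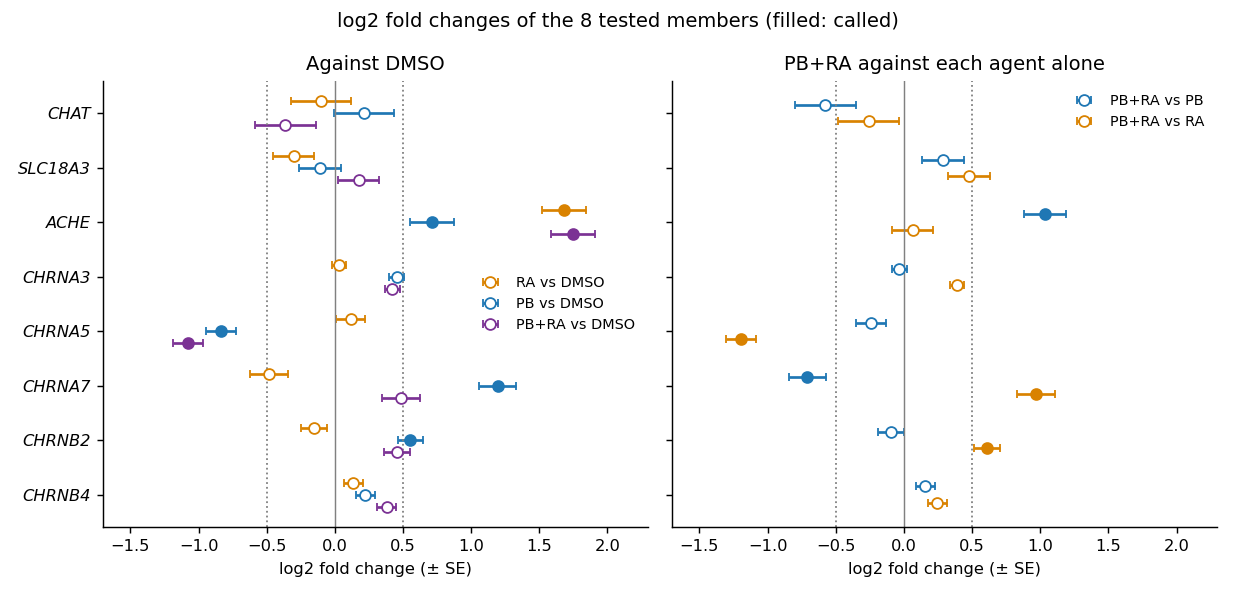
log2 fold changes (horizontal axes, ± SE) of the 8 tested members against DMSO on the left and of PB+RA against each agent alone on the right, filled where called; dotted lines mark the fold minimum of 0.5. ACHE lies at 1.68 in RA, CHRNA7 at 1.19 and CHRNA5 at -0.83 in PB.

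The promoters of CHRNA7, CHRNB2 and CHRNA3 are printed because every PB sample of these 3 subunit genes lay above every DMSO sample. With ACHE this held for 4 of the 8 tested members, beside 25.7% of all tested genes. Each is the 250 bases before the RefSeq start on GRCh38.p14, in the direction of transcription: chr15:32030233-32030482, plus strand (the first of 2 entries), for CHRNA7, chr1:154567528-154567777, plus strand, for CHRNB2, and chr15:78620997-78621246, minus strand, for CHRNA3. Capitals mark GC boxes (GGGCGG), the E box CACGTG and the nuclear receptor half-site AGGTCA, on either strand.
CHRNA7: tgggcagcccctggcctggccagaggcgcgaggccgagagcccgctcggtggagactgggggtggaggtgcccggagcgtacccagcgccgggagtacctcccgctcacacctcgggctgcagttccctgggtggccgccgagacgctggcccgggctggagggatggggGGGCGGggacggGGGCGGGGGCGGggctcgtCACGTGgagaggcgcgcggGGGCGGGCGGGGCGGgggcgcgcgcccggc
CHRNB2: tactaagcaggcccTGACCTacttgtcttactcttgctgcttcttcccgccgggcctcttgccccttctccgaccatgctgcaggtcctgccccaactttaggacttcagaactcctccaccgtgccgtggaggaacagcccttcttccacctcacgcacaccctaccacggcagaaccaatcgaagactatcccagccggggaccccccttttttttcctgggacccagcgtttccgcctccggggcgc
CHRNA3: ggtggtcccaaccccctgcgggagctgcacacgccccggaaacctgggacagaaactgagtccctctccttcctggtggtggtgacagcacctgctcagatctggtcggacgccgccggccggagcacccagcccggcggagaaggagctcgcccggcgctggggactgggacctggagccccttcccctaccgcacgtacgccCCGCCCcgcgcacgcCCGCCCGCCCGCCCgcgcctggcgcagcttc
GC boxes, found in 42.3% of the 27305 promoters, numbered 6 in CHRNA7, where some overlap, 4 in CHRNA3 and 0 in CHRNB2. The E box (6.49% of promoters) was in CHRNA7 alone among the 8 members with an entry, and the half-site (12.1%) in CHRNB2 alone. The E2F site TTTCCCGC (1.42%) and GGACAGC, the core of the REST element (4.78%), were in the window of no member. The CHRNA5 promoter was not analysed here.

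CHRNA5, CHRNA3 and CHRNB4 lie side by side on chromosome 15, and the first went down with PB while its neighbours had higher values. Their counts can be set against each other within a sample, which leaves out the scaling between libraries. Per 100 CHRNA3 counts there were 9.53, 9.48, 10.1 and 9.67 CHRNA5 counts in the 4 DMSO samples and 3.71, 3.69, 4.002 and 4.48 in PB. In PB+RA there were 3.03, 2.996, 3.53 and 4.13, and in RA 10.1, 10.3, 10.5 and 10.3. The ratio was lower by 1.29 on the log2 scale in PB and by 1.51 in PB+RA, in 4 of 4 same-numbered pairs each, and higher by 0.09 in RA. The exact two-sided permutation test gave p = 0.0286 for each, the smallest that 4 against 4 samples allow. Adjusted over the 12 ratios tested this is 0.0686 by the exact test, so no ratio passed. Once groups do not overlap, this test takes no account of how far apart they lie. A larger shift of CHRNA5 per CHRNA3 would have given the same adjusted p, so the failure to pass says nothing of its size. CHRNA5 per 100 CHRNB4 counts averaged 81.6 ± 12.4 with vehicle, 39.1 ± 5.88 with PB and 29.6 ± 6.71 with PB+RA (SD, n = 4). CHRNB4 and CHRNB2 per CHRNA3 overlapped between DMSO and each treatment, although same-numbered pairs went one way in 4 comparisons. CHRNB4 per CHRNA3 was lower in 4 of 4 pairs with PB (-0.23 on the log2 scale, exact p = 0.0857) and higher in 4 of 4 with RA (0.11, exact p = 0.314). CHRNB2 per CHRNA3 was higher in 4 of 4 with PB (0.10, exact p = 0.343) and lower in 4 of 4 with RA (-0.18, exact p = 0.286), and these exact tests do not use the pairing.

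**Figure D3:**
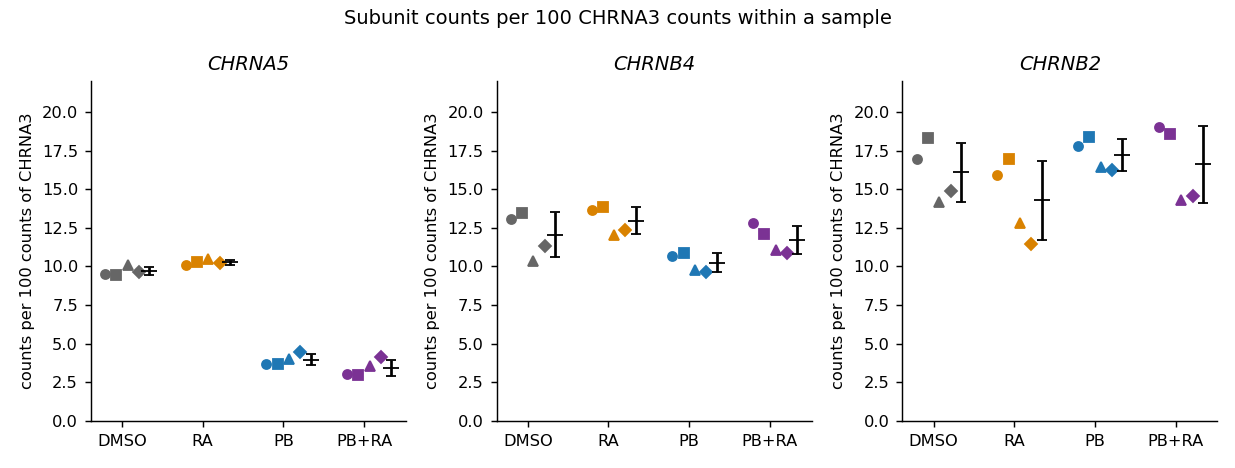
Counts of CHRNA5, CHRNB4 and CHRNB2 per 100 CHRNA3 counts in each sample (vertical axes start at 0; marker shape per replicate, black bar the mean ± SD of 4). CHRNA5 lies at 9.48 to 10.5 without PB and at 2.996 to 4.48 with it.

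CHRNA5 and CHRNA3 run toward each other and their gene bodies overlap by 2218 bases, with 198 exonic bases in common on opposite strands. The libraries kept strand, but the strand setting used for counting is not given in the sources used here, so how reads in those bases were counted is not known. CHRNB4 lies on the same strand as CHRNA3 and ends 2815 bases before the CHRNA3 start. Of the other tested genes of at least 1 CPM within 100 kb, chosen after their values were seen, PSMA4, a proteasome subunit, had a log2 fold change of -0.46 in PB and fell by 0.54 in PB+RA (adjusted p = 1.36e-08 in edgeR). ADAMTS7, a secreted metalloprotease, rose by 0.63 in PB, 0.88 in RA and 1.07 in PB+RA. IREB2 and MORF4L1 stayed under the fold minimum in all 3, and HYKK, a hydroxylysine kinase at 1.74 CPM, rose by 0.72 in PB+RA (adjusted p = 0.0145).

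**Figure D4:**
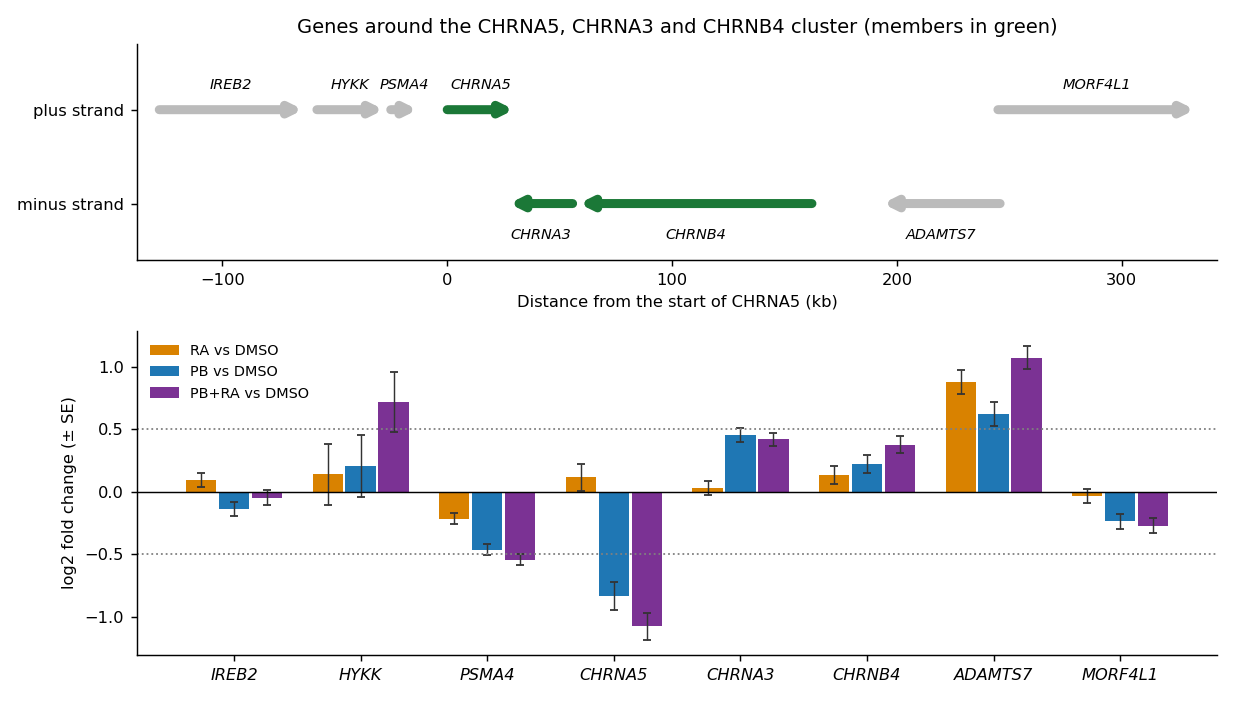
Top: genes within 100 kb of the cluster that were tested and averaged at least 1 CPM, drawn by distance in kb from the start of CHRNA5, with arrows for the direction of transcription. Bottom: their log2 fold change against DMSO (bars, ± SE; dotted lines at 0.5 and -0.5), in which CHRNA5 is at -0.83 in PB beside CHRNA3 at 0.45.

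Around the CHAT locus, also chosen after the values were seen, the flanking genes moved where CHAT and SLC18A3 were not called. ERCC6, a DNA repair gene, rose by 0.68 in PB and 0.97 in PB+RA. OGDHL, a mitochondrial dehydrogenase subunit, rose by 0.79 in PB (adjusted p = 2.52e-06 in edgeR) and 0.65 in PB+RA, and had -0.33 in RA.

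Among the other genes of acetylcholine handling, 8 of 10 were tested and 2 rose in each comparison with DMSO. Over all tested genes 28.2% were called in PB, 13.3% in RA and 41.9% in PB+RA. COLQ, the collagen tail that anchors acetylcholinesterase, averaged 0.759 ± 0.183 CPM with vehicle, 1.602 ± 0.213 with PB, 2.61 ± 0.572 with RA and 3.87 ± 0.765 with PB+RA (SD, n = 4), and rose by 1.09, 1.78 and 2.33 on the log2 scale. BCHE, the related butyrylcholinesterase, rose by 0.66 in PB (adjusted p = 0.00797 in edgeR) and had 0.11 in PB+RA. SLC44A5, a choline transporter-like gene, rose by 1.36 in RA and 2.08 in PB+RA (adjusted p = 1.94e-06). The median log2 fold change of the list was 0.36 in PB, 0.38 in RA and 0.26 in PB+RA.

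Few other nicotinic subunits were expressed, with 4 of 12 tested. CHRNA6 averaged 0.189 ± 0.154 CPM with vehicle, 1.14 ± 0.321 with PB, 0.707 ± 0.188 with RA and 2.01 ± 0.485 with PB+RA (SD, n = 4), and rose by 2.56, 1.86 and 3.34 on the log2 scale from a level near the count floor. CHRNA1, CHRNA2, CHRNA4, CHRND and CHRNE had at most 8 counts in any sample. All 5 muscarinic receptor genes, the G protein-coupled receptors for acetylcholine, were tested, and 3 rose in PB, 3 in RA and 4 in PB+RA. Beside these counts, 28.2%, 13.3% and 41.9% of all tested genes were called. CHRM3 rose in all 3, by 0.94 in PB, 1.15 in RA and 1.23 in PB+RA (adjusted p = 2.34e-05 in edgeR). CHRM1 rose by 1.27 in PB and had -0.52 in RA (adjusted p = 0.0751), whereas CHRM4 rose by 0.88 in RA and had -0.39 in PB (adjusted p = 0.194).

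**Figure D5:**
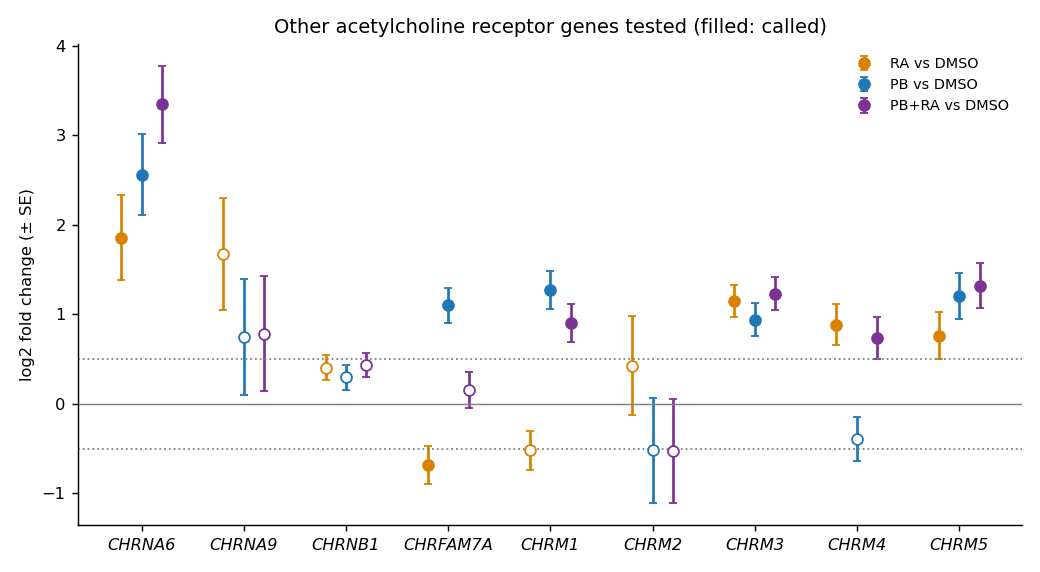
log2 fold change against DMSO (vertical axis, ± SE) of the 9 other acetylcholine receptor genes that were tested, filled where called. CHRNA6 rises by 3.34 in PB+RA, and CHRM1 lies at 1.27 in PB and -0.52 in RA.

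Of 9 genes for receptor assembly and the prototoxins that bind receptors, 4 were tested. RIC3, a chaperone for nicotinic receptors, rose by 0.76 in PB (adjusted p = 3.51e-05 in edgeR) and 0.98 in PB+RA. TMEM35A, which encodes the assembly factor NACHO, rose by 1.51 in RA and 1.01 in PB+RA and had 0.03 in PB. UBXN2A fell by 0.65 in PB (adjusted p = 0.000469).

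The regulators tied to a cholinergic or noradrenergic choice were tested for 10 of 15 genes. CNTFR, the receptor for ciliary neurotrophic factor, rose by 1.30 in PB (adjusted p = 1.12e-07 in edgeR) and 0.99 in PB+RA, and had 0.09 in RA. LIFR, a signalling partner of that receptor, rose by 0.57 in RA (adjusted p = 0.0373). It had -0.47 in PB (adjusted p = 0.0621) and -0.02 in PB+RA. MNX1, a motor neuron homeobox gene, fell by 1.62 in PB and fell by 1.84 in PB+RA. SOX11 fell by 0.57 in PB and rose by 0.57 in RA, and REST, the repressor of neuronal genes, rose by 1.01 in RA (adjusted p = 0.012). REST had -0.69 in PB (adjusted p = 0.0643 in edgeR) and 0.37 in PB+RA (adjusted p = 0.266), neither of them called. RET, the receptor kinase for GDNF family ligands, rose by 0.75 in PB+RA (adjusted p = 2.28e-09).

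Of the 5 noradrenergic genes, 4 rose in PB, 2 in RA and 4 in PB+RA, with a median log2 fold change of 0.77, 0.31 and 0.84. The shares of all tested genes called were 28.2%, 13.3% and 41.9%. TH, the rate-limiting enzyme of catecholamine synthesis, rose by 1.43 in PB and 1.88 in PB+RA (adjusted p = 8.73e-08 in edgeR). SLC18A2, the vesicular monoamine transporter that does for noradrenaline what SLC18A3 does for acetylcholine, rose by 2.08 in PB and 1.89 in PB+RA, while SLC18A3 itself had -0.11 and 0.17.

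Likeness of pattern was measured as the root mean square difference, over the 16 samples, between a member and each gene of at least 10 CPM in log2 CPM relative to its own DMSO mean. The genes nearest to CHRNA5 were GINS3 (0.10), a subunit of a DNA replication complex, PDE7A (0.11) and CRISPLD1 (0.13), beside a median of 0.72 over 10001 genes. GINS3 had a log2 fold change of -0.86 in PB, 0.00 in RA and -1.11 in PB+RA. Nearest to CHRNA7 were GLCCI1 (0.19), ICA1 (0.22) and CROT (0.23), and nearest to ACHE were AGAP2 (0.20), ITGA1 (0.28) and DCLK1 (0.29), of which only AGAP2 stayed among the nearest 3 when genes from 1 CPM were let in.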

How the data were processed

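RNA-seq of 16 SK-N-BE(2)C samples was used, grouped by the sample titles. According to the methods and the submitters' processing notes, polyadenylated RNA went into directional paired-end libraries, and the authors trimmed the reads with Trim Galore 0.6.4 and mapped them to hg19 with STAR 2.6.1d (versions as in the processing notes; the study's resource list names another release of STAR). The deposited counts are STAR's read counts per gene, not normalized; the annotation release and strand column are not given in the sources used here. The CPM deposited by the authors equalled the count over the sample's total within 5e-12. A further table, the authors' DESeq2 fold changes and adjusted p-values, was not used.

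Genes passing filterByExpr (15415 of 27037) were tested with edgeR 4.0.16 (R 4.3.3; TMM scaling, robust quasi-likelihood fit, a coefficient per group, all 16 samples), with Benjamini-Hochberg adjustment over all genes. The SE given for an edgeR log2 fold change is its absolute value over the square root of the quasi-likelihood F statistic. The count test was tested on simulated data with 200 changed genes. Totals of 19515779 to 31620821 counts limit low genes, and count floors cover counting error only. Alternatives were RLE scaling, no filter, a filter at 1 CPM in 4 samples, DESeq2 1.42.0, limma-voom (limma 3.58.1), a replicate block, only the groups compared, a GC and length offset (14682 genes, 95.2% of those tested; centred per sample, or not centred, the latter chosen after seeing the data), replicate pairs, each sample left out, and other fold minimums. The methods describe biological replicates as separate passages plated in independent experiments. Same-numbered samples deviated together from their group means (r = 0.33 to 0.573 over 24 pairs, against -0.492 to 0.447 over 72 others), so they are described as pairs. The main fit and the exact ratio tests did not use this pairing, which entered only the fits with a replicate block.

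Gene positions and lengths came from GENCODE v44 mapped to GRCh37, and promoters from RefSeq on GRCh38.p14. All members were named whatever their values; from each context list, called genes of at least 1 CPM, at most 6 by size of change. A gene of the marker and regulator lists is not reported here. The members and lists were chosen with earlier results of these data known.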

Additional observations from a re-analysis of the deposited data

Results flagged for a closer look

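The patterns here were picked out by 2 rules: an interaction called with the replicate block, or same-numbered pairs that moved opposite ways with RA. The pair directions below are therefore part of the choice and no separate support. In the main fit no member was called for the interaction. The interaction of SLC18A3, the vesicular acetylcholine transporter gene, was 0.58 on the log2 scale with the replicate number as a block (adjusted p = 0.0058 in edgeR) and 0.59 without it (adjusted p = 0.144), and its 4 same-numbered pairs were all lower with RA alone and all higher with RA on top of PB. The interaction of ACHE was -0.66 with the block (adjusted p = 0.00976 in edgeR) and -0.65 without it (adjusted p = 0.114). The RA values of CHRNA5 also went opposite ways in all 4 pairs, higher without PB and lower with it, and its interaction was -0.36 (adjusted p = 0.22 in edgeR) without the block and -0.37 (adjusted p = 0.00952) with it, which passed the adjusted p and missed the fold minimum. In none of the 32 groups of 4 samples with more than 10 counts did a member's highest or lowest sample stand apart by Dixon's criterion.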

How the results depend on the processing

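Of 1112 alternative values of member log2 fold changes, 1031 kept their direction and their side of the threshold, 48 passed it only under the alternative, 10 no longer passed, and 23 changed sign, none of them called in either fit. Without a fold minimum the genes called were 8269 in PB, 5420 in RA, 10189 in PB+RA, 5877 in PB+RA against PB, 8391 in PB+RA against RA and 816 for the interaction, and with a minimum of 1 they were 1686, 914, 3120, 1058, 1776 and 169. Those counts are out of 15415 tested genes, and the counts of members that follow are out of 8. Without a fold minimum the members called were 6 in PB, 2 in RA and 6 in PB+RA. There were 2 in PB+RA against PB and 6 in PB+RA against RA. With a minimum of 1 the members called were 1 in PB, 1 in RA and 2 in PB+RA. At that minimum there was 1 in PB+RA against PB and 1 in PB+RA against RA. Members called in RA numbered 2, CHRNA7 being the second, under RLE scaling, no filter, DESeq2, limma-voom and the GC and length correction, also with the replicate block and with the offset not centred (chosen after seeing the data), and 1 to 2 with a sample left out. The interaction genes numbered 1171 with the replicate block and 1188 with block and GC correction, and 342 (without RA replicate 3) to 515 with a sample left out. Its split of 64 higher and 466 lower became 117 and 357 with the offset not centred. Members called for the interaction were 2 with the replicate block, 2 with block and GC correction, 1 with replicates 3 and 4 alone and 0 to 1 with a sample left out. With the offset not centred CHRNB2 in PB fell under the fold minimum (0.44) and CHAT in PB+RA was called (-0.58), and in PB+RA CHRNA3 (0.28), CHRNB2 (0.24) and CHRNB4 (0.22) were smaller by over 1.5 times. The block changed no other member's call than those named in the report.

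The sign changes were all of small values. In PB, CHAT was -0.069 with replicates 1 and 2 alone and SLC18A3 0.11 with replicates 3 and 4 alone. CHRNA3 in RA was -0.0071 with no filter, -0.10 with the offset not centred and -0.031 with replicates 1 and 2 alone, and between PB+RA and PB it was 0.047 with replicates 3 and 4 alone. CHAT between PB+RA and RA was 0.15 with replicates 3 and 4 alone. The CHRNA3 interaction was 0.0093 with the offset not centred and 0.0037 with replicates 3 and 4 alone. With a sample left out, ranges across 0 were -0.037 to 0.19 for ACHE between PB+RA and RA, -0.29 to 0.027 for CHAT in RA, -0.031 to 0.054 for CHRNA3 in RA, -0.082 to 0.0028 for CHRNA3 between PB+RA and PB, and -0.10 to 0.012, -0.0020 to 0.15 and -0.024 to 0.12 for the interactions of CHRNA3, CHRNB2 and CHRNB4. The cause of these changes was not tested.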
